A study of Homo sapiens with 6 samples.

Results

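The Sprouty and SPRED genes were described in AC16 cells that had been cooled. All 7 members of the family were chosen by name, the 4 Sprouty genes SPRY1, SPRY2, SPRY3 and SPRY4 and the 3 SPRED genes SPRED1, SPRED2 and SPRED3, and each had a feature on the arrays, out of 22411 genes with a feature of 1 symbol. AC16 is a human cell line of adult ventricular cardiomyocyte origin, made by fusing such cells with transformed fibroblasts. The hypothermia group was 3 arrays of RNA from AC16 cells at 28 °C for 6 h and the control group 3 arrays from AC16 cells at 37 °C for 6 h, both under CO2 and in medium with serum. No source used here states that the 3 samples of a group came from separate cultures, so the p-values measure only how these arrays differ among themselves, possibly for technical reasons. The small number of arrays limits the precision.

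Sprouty and SPRED proteins are feedback inhibitors of the pathway that runs from receptor tyrosine kinases through RAS, RAF and MEK to the kinase ERK. Growth factors switch on several of their genes through ERK itself, and the proteins then damp the signal between the receptor and RAF. The Sprouty proteins share a cysteine-rich domain that tethers them to membranes. The SPRED proteins carry a related domain behind an EVH1 domain, with which SPRED1 brings the RAS inhibitor neurofibromin to the membrane.

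The promoters of SPRY2 and SPRY4 are shown first because these were the members whose signal rose at 28 °C. Each line holds the 250 bases before a transcription start in RefSeq (build GRCh38.p14), 5′ to 3′ on the strand of the gene. SPRY2 lies at chr13:80341127-80341376 on the minus strand, before the outermost of its starts in the table, and SPRY4 at chr5:142324248-142324497 on the minus strand. Capitals mark the half-site of the cyclic AMP response element (TGACG), the core of an ETS site (CCGGAA) and the EGR site (GCGNGGGCG), each searched on both strands.
SPRY2: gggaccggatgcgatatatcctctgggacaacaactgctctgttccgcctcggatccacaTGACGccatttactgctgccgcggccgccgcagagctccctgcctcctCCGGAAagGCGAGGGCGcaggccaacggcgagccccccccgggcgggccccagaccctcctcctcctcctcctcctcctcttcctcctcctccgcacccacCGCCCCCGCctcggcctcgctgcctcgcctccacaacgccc
SPRY4: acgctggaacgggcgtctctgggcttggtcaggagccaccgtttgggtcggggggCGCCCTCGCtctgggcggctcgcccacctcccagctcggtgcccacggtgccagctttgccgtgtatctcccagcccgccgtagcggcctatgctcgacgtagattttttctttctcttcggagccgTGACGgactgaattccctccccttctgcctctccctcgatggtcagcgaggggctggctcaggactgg

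Both printed windows held a TGACG half-site and an EGR site, and that of SPRY2 also held an ETS core. SPRY2 had 3 windows in the table, of which the other 2 held none of the motifs searched, and the arrays do not show which start AC16 cells use. The half-site began 190 bases before the start in SPRY2 and 68 bases before it in SPRY4. The EGR site began 134 and 41 bases before the start in SPRY2 and 195 bases before it in SPRY4, and the ETS core of SPRY2 began 142 bases before it. These motifs are common. TGACG stood in 21.2% of all 35116 RefSeq windows of the same length, CCGGAA in 14.5% and GCGNGGGCG in 8.41%. All 7 members matched a promoter, with 13 windows in all when the Y copies of SPRY3 are left out. Of these 13, 3 held TGACG (the third belongs to SPRY3), 3 held the EGR site (the third belongs to SPRY1) and 2 held CCGGAA (the other belongs to SPRY1). The full element TGACGTCA, which contains the half-site on both strands, and the CArG box of serum response factor were in none of the 13, against 1.65% and 1.16% of all windows. The AP-1 site TGANTCA was in 1 (SPRED3) and the TATA box TATAAA in 1 (SPRED2), against 6.57% and 10.7%. A match describes the letters only, not a bound site or a cause.

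SPRY2 and SPRY4 rose at 28 °C, and none of the other 5 members passed the test in either direction. SPRY2 increased 1.60-fold (95% interval 1.37 to 1.88) and SPRY4 1.56-fold (1.36 to 1.78). The test was limma on the deposited log2 signals of all 70523 features, with p-values adjusted by Benjamini-Hochberg over all of them and an adjusted p under 0.05 as the threshold. By this rule 2 of 7 members were higher, beside 0.227% of all features. The family was chosen with earlier results of these data known, so this count is not independent evidence. No member was lower, beside 0.591% of all features. At an unadjusted p under 0.05 the same 2 members were higher, beside 5.41% of all features, and none was lower, beside 6.08%. The random variance model also gave 2 higher and 0 lower. The median log2 fold change of the 7 members was -0.00, and that of all features was 0.03. The plot of signals by array shows each member in both groups.

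**Figure D1:**
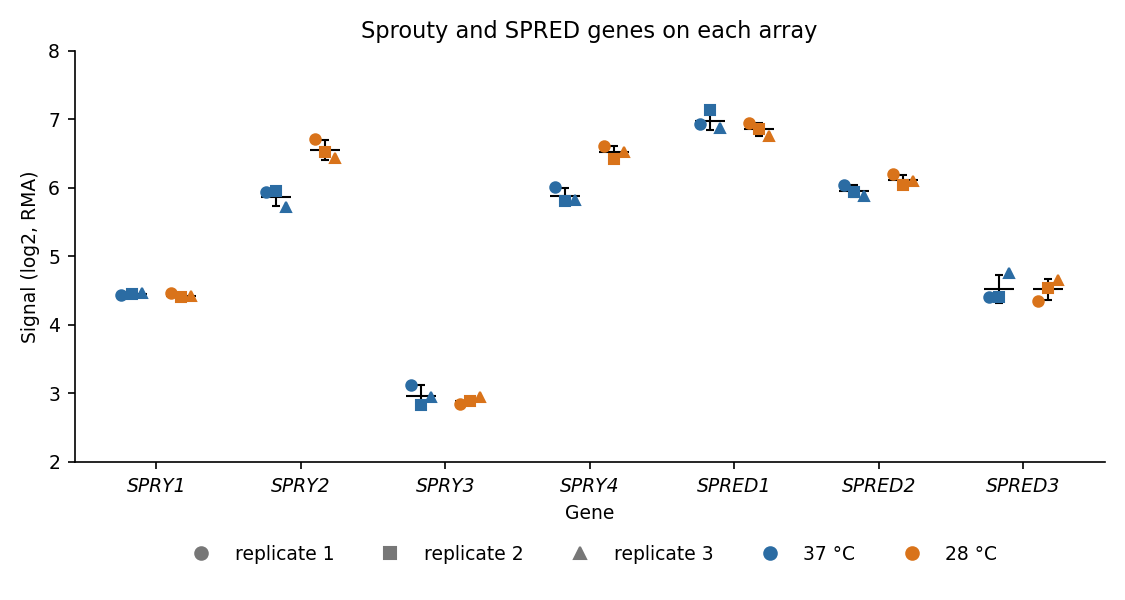
Log2 RMA signal of the 7 Sprouty and SPRED genes (x axis) on each of the 6 arrays, with 37 °C in blue and 28 °C in orange, symbols for the replicate number, and black bars for the mean ± SD of 3 arrays. The 3 orange symbols of SPRY2 (6.43 to 6.71) and of SPRY4 (6.42 to 6.61) lie above all blue ones (5.72 to 5.96 and 5.80 to 6.01), and signals of different genes are not comparable with each other.

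SPRY2 encodes the Sprouty protein that binds the ubiquitin ligase CBL and holds it away from the EGF receptor. The log2 signal of SPRY2 was 6.71, 6.52 and 6.43 in hypothermia replicates 1, 2 and 3. In control replicates 1, 2 and 3 it was 5.94, 5.96 and 5.72. The groups were separated by 0.47, more than the spread within either, and control replicate 3 was the lowest of the 6 arrays. The means (± SD, n = 3 arrays each) were 6.55 ± 0.142 for hypothermia and 5.87 ± 0.131 for control. The log2 fold change, 0.68, had a standard error of 0.098 (limma, adjusted p = 0.0268).

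SPRY4 encodes a Sprouty protein that holds back ERK activation after VEGF. On the arrays SPRY4 had log2 signals of 6.61, 6.42 and 6.52 in hypothermia replicates 1, 2 and 3 and 6.01, 5.80 and 5.82 in control replicates 1, 2 and 3. The groups again did not overlap, with a gap of 0.41 between the lowest array at 28 °C and the highest at 37 °C. The means (± SD, n = 3 arrays each) were 6.52 ± 0.0954 for hypothermia and 5.88 ± 0.115 for control. The log2 fold change, 0.64, had a standard error of 0.084 (limma, adjusted p = 0.018). Within the hypothermia group replicate 1 was the highest for SPRY2 and for SPRY4. Within the controls their order differed, with replicate 2 highest for SPRY2 and replicate 1 for SPRY4.

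The size of both increases varied little between fits that left out 1 array, while the adjusted p crossed the threshold. The log2 fold change of SPRY2 was between 0.60 and 0.74 in these 6 fits and its adjusted p between 0.041 and 0.107, so that it passed only without control replicate 3 (0.041) and not without control replicate 1 (0.107) or 2 (0.0645) or hypothermia replicate 1 (0.0909), 2 (0.105) or 3 (0.0514). That of SPRY4 was between 0.59 and 0.70 with an adjusted p between 0.0395 and 0.085, and it passed only without control replicate 1 (0.0452) or 3 (0.0395) and not without control replicate 2 (0.069) or hypothermia replicate 1 (0.085), 2 (0.0507) or 3 (0.0782). Fewer features pass in most such fits, with 60 to 86 higher in all when an array other than control replicate 3 was left out, against 160 with all arrays. The brighter background features of the arrays were dimmer in control replicates 1 and 2 than on the other 4 arrays. Their mean was 6.20, 6.10 and 6.47 in control replicates 1, 2 and 3 and 6.40, 6.39 and 6.49 in hypothermia replicates 1, 2 and 3. With this mean as a covariate (an alternative added after seeing the data) the log2 fold change was 0.81 for SPRY2 (limma, adjusted p = 0.0463) and 0.65 for SPRY4 (adjusted p = 0.103). After each array was centred on its median it was 0.64 for SPRY2 (adjusted p = 0.0528) and 0.60 for SPRY4 (adjusted p = 0.035).

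**Figure D2:**
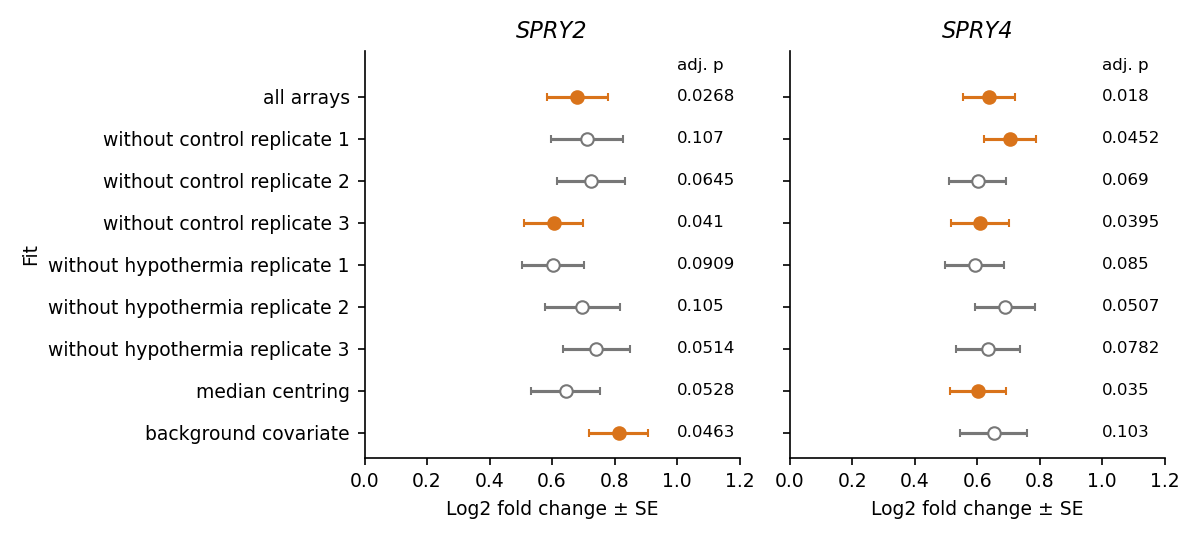
Log2 fold change ± standard error (x axis) of SPRY2 and SPRY4 in the fit of all arrays, in the 6 fits without 1 array, after centring each array on its median, and with the brighter background as a covariate. Filled symbols mark an adjusted p under 0.05, and the numbers are adjusted p-values from limma. Every point lies between 0.59 and 0.82, and the symbols change between filled and open.

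SPRY1 did not pass the test, and its signals were the most tightly grouped of the 7 genes. SPRY1 encodes a Sprouty protein needed for normal kidney development in the mouse. Its log2 signal was 4.46, 4.41 and 4.42 in hypothermia replicates 1, 2 and 3 and 4.44, 4.45 and 4.46 in control replicates 1, 2 and 3. The groups overlapped, and the log2 fold change was -0.02 with a 95% interval from -0.16 to 0.11 (limma, adjusted p = 0.915). That interval does not reach the lowest bound of the intervals of SPRY2 (0.45) or SPRY4 (0.44).

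SPRY3, the member in a pseudoautosomal region shared by X and Y, was close to the median background feature of the arrays. It had 2 features, 1 listed for each chromosome, and both held identical values. The log2 signal was 2.84, 2.89 and 2.94 in hypothermia replicates 1, 2 and 3 and 3.13, 2.84 and 2.95 in control replicates 1, 2 and 3, where the median background feature had 2.47 to 2.60. The groups overlapped. SPRY3 had a log2 fold change of -0.08 with an interval from -0.28 to 0.12 (limma, adjusted p = 0.759). The brighter background features had higher means, 6.10 to 6.49 on the 6 arrays. SPRY1, SPRED2 and SPRED3 also lay below these means on every array. The signals of SPRY2 (5.72 to 6.71) and SPRY4 (5.80 to 6.61) ran from below them to above them.

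SPRED1, the gene mutated in Legius syndrome, had a slightly lower mean at 28 °C that did not pass. SPRED1 had log2 signals of 6.95, 6.86 and 6.76 in hypothermia replicates 1, 2 and 3 and 6.93, 7.13 and 6.87 in control replicates 1, 2 and 3. The groups overlapped, and control replicate 2 was the highest array. Its change was -0.12 on the log2 scale with an interval from -0.33 to 0.08 (limma, adjusted p = 0.636).

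SPRED2, a close relative of SPRED1 that also restrains RAS signalling, came nearest to a change after SPRY2 and SPRY4. SPRED2 had log2 signals of 6.20, 6.04 and 6.10 in hypothermia replicates 1, 2 and 3 and 6.04, 5.93 and 5.88 in control replicates 1, 2 and 3. The groups touched, since hypothermia replicate 2 exceeded control replicate 1 by under 0.001. For SPRED2 the log2 fold change was 0.16 with an interval from -0.01 to 0.33 (limma, adjusted p = 0.461). With SPRY2 and SPRY4 it was 1 of 3 members whose groups did not overlap with the higher values at 28 °C, beside 9.38% of all features. No member had groups that did not overlap with the lower values at 28 °C, beside 8.49% of all features.

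SPRED3, the third SPRED gene, varied more within the groups than any other member. SPRED3 had log2 signals of 4.35, 4.54 and 4.66 in hypothermia replicates 1, 2 and 3 and 4.40, 4.40 and 4.76 in control replicates 1, 2 and 3. Control replicate 3 was the highest array, and the groups overlapped over most of their range. For SPRED3 the log2 fold change was -0.00 with an interval from -0.28 to 0.27 (limma, adjusted p = 0.996). Its sign differed between fits that left out 1 array, from -0.07 to 0.12, and none passed.

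**Figure D3:**
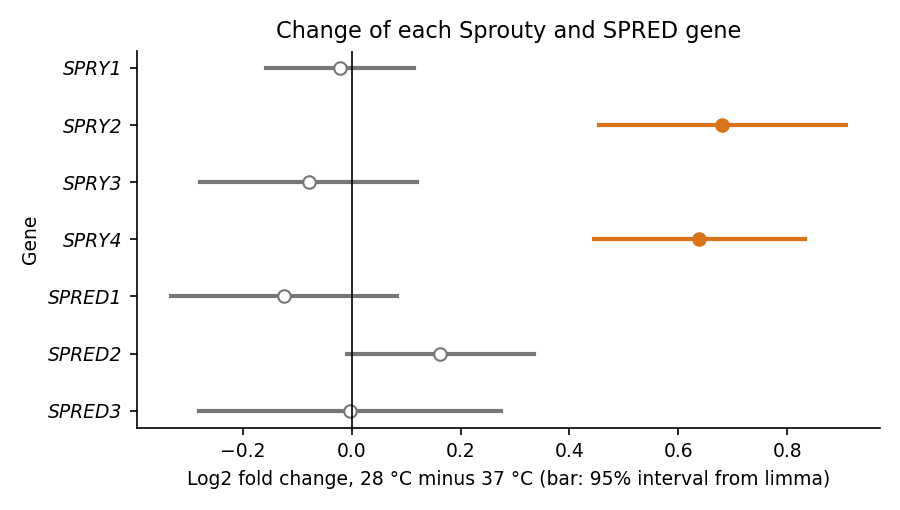
Log2 fold change of each Sprouty and SPRED gene (28 °C minus 37 °C, x axis) with its 95% interval from limma, filled where the adjusted p was under 0.05. The intervals of SPRY2 (0.45 to 0.91) and SPRY4 (0.44 to 0.83) lie to the right of 0, and those of the other 5 genes include it.

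Whether SPRY2 and SPRY4 changed more than their relatives was tested on the difference between 2 genes on each array. For SPRY2 or SPRY4 against each of the other 5 members, the change at 28 °C was larger by 0.475 to 0.805 on the log2 scale, and in all 10 pairs the 3 hypothermia arrays lay above the 3 control arrays. The smallest difference was that of SPRY4 against SPRED2. Each pair had a two-sided exact permutation p = 0.1, the smallest that 3 arrays against 3 can give, so this test could not reach the threshold (adjusted p = 0.11 over the 11 pairs compared). SPRY2 and SPRY4 differed by 0.04, with overlapping groups (exact permutation p = 0.9). The pairs were formed after it was known which members had passed.

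The genes closest to SPRY2 and SPRY4 over the 6 arrays were looked up as a description. Each gene was centred on its mean over the 6 arrays, and likeness was the root mean square difference on the log2 scale, over 15727 genes with a mean above the median feature. The gene closest to SPRY2 was DUSP6 (0.06), the phosphatase that removes phosphate from ERK in the cytoplasm. Its log2 signal was 5.42, 5.22 and 5.06 in hypothermia replicates 1, 2 and 3 and 4.53, 4.73 and 4.37 in control replicates 1, 2 and 3. Like SPRY2, it was highest in hypothermia replicate 1 and lowest in control replicate 3. The log2 fold change of DUSP6, 0.69, missed the threshold (limma, adjusted p = 0.0545). It passed in 5 of 9 fits of all arrays with another setting and in none of the 6 without 1 array. The plain test per feature, which after adjustment called no feature, is not among the 9. The next were SRSF5, a splicing factor of the SR family (0.06), and BCOR, a corepressor of BCL6 (0.07), with log2 fold changes of 0.60 and 0.69 (limma, adjusted p = 0.0367 and 0.00695). BCOR kept its call whichever array was left out. SRSF5 lost its call without control replicate 1 (0.149) and without hypothermia replicate 1 (0.155), 2 (0.144) or 3 (0.102), and after median centring (0.0766).

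The genes closest to SPRY4 were YRDC, which acts in the modification of transfer RNA (0.04), GATA6, a transcription factor of the heart and endoderm (0.06), and CCN2, which encodes connective tissue growth factor (0.07). Their log2 fold changes were 0.61, 0.62 and 0.69 (limma, adjusted p = 0.0119, 0.016 and 0.0347). YRDC lost its call without control replicate 1 (0.0563) or hypothermia replicate 1 (0.0525) or 3 (0.0529). GATA6 lost it without control replicate 2 (0.0579) or hypothermia replicate 1 (0.0838), 2 (0.0878) or 3 (0.0508). CCN2 kept it only without control replicate 1 (0.0334), and lost it without control replicate 2 (0.125) or 3 (0.0564), without hypothermia replicate 1 (0.147), 2 (0.116) or 3 (0.119) and after median centring (0.0653). The background covariate ended all 3 calls (0.0852, 0.095 and 0.129). YRDC had 7.64, 7.44 and 7.52 in hypothermia replicates 1, 2 and 3 and 6.97, 6.88 and 6.91 in control replicates 1, 2 and 3, which is the order of SPRY4 among the arrays at 28 °C. SPRY4 was in place 15 among the genes closest to SPRY2, and SPRY2 in place 33 among those closest to SPRY4. Both were chosen for an increase, and all these genes were read from the same 6 arrays.

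**Figure D4:**
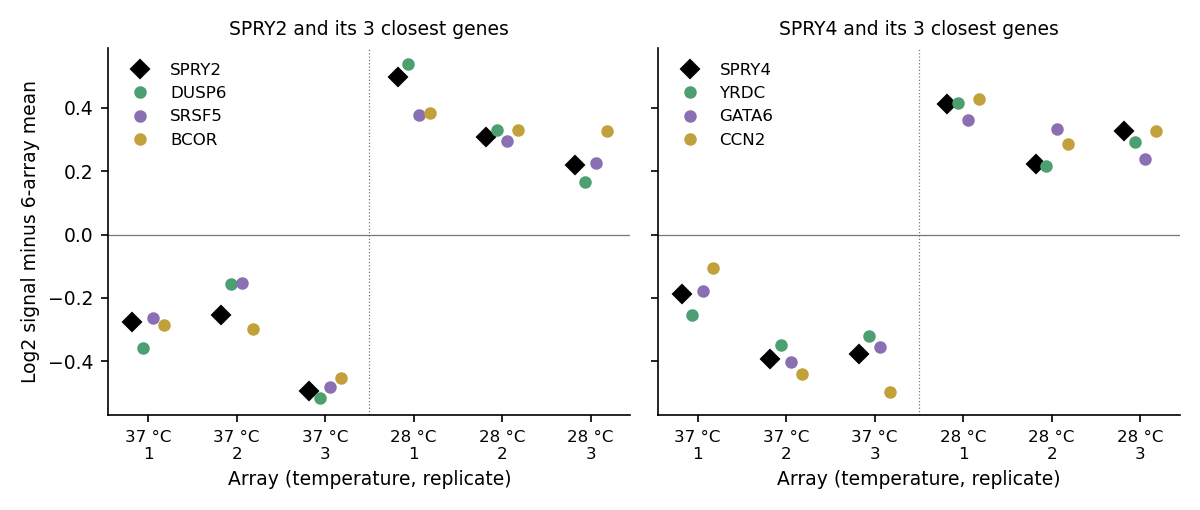
Log2 signal minus the mean over 6 arrays (y axis) on each array (x axis, temperature and replicate number) for SPRY2 with DUSP6, SRSF5 and BCOR and for SPRY4 with YRDC, GATA6 and CCN2. Black diamonds are SPRY2 and SPRY4, and all 8 genes lie below 0 on the 37 °C arrays and above 0 on the 28 °C arrays.

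The pathway that these proteins inhibit was followed from the ligands to the target genes in 9 lists. Of 127 genes listed, 108 had a feature with 1 symbol and were counted. By the same rule 9 of the 108 were higher and 2 lower at 28 °C, beside 0.227% and 0.591% of all features, with a median log2 fold change of 0.04. The lists too were chosen with earlier results of these data known. The higher genes were 1 ligand, 3 inhibitors of ERK and 5 of its target genes, and the lower ones were an adaptor and a ubiquitin ligase.

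**Figure D5:**
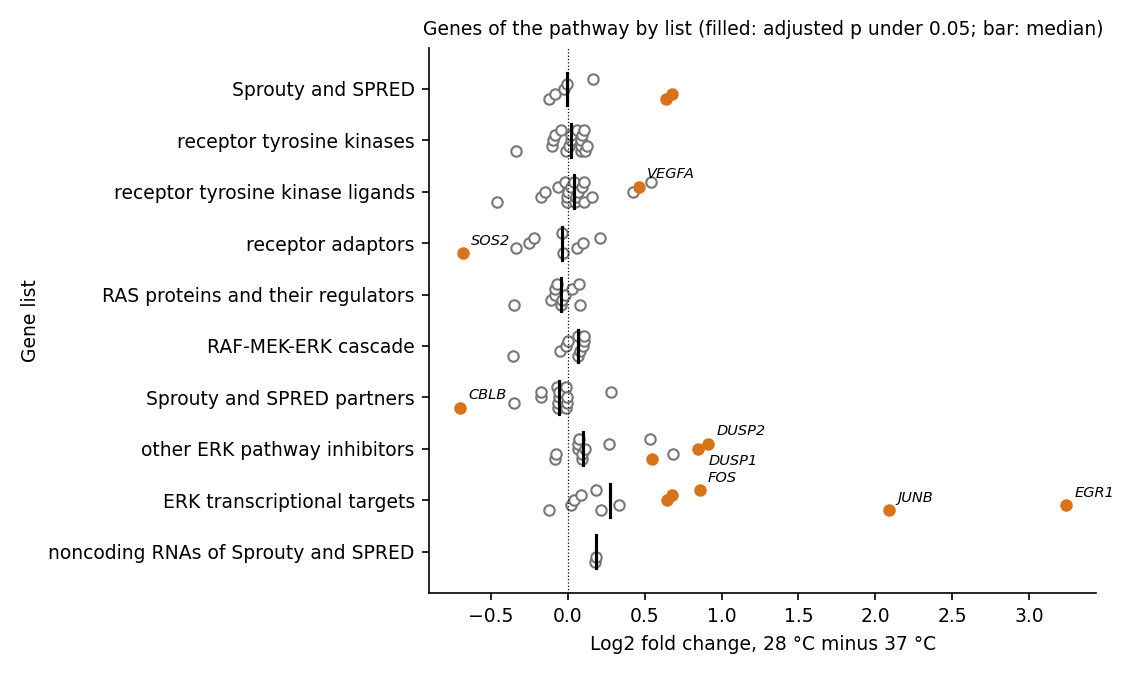
Log2 fold change (28 °C minus 37 °C, x axis) of each measured gene of the Sprouty and SPRED family and of 9 pathway lists (y axis), filled where the adjusted p from limma was under 0.05, with a black bar at the median of the list. The receptors, the RAS proteins and the RAF-MEK-ERK cascade have no filled symbol, and filled symbols to the right are in the rows of the family, the ligands, the other inhibitors and the target genes.

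Among 20 ligands of receptor tyrosine kinases, 1 was higher and none was lower. At an unadjusted p under 0.05 there were 4 higher and 2 lower, beside 5.41% and 6.08% of all features. In the random variance model there were 2 higher and 0 lower. IGF1, 1 of the 4, had mean signals of 2.49 at 28 °C and 2.33 at 37 °C, below the median background feature. FGF7, HGF, EGF, EREG and BTC were below it too. VEGFA, which encodes the vascular growth factor VEGF-A, had 7.01, 6.92 and 6.90 in hypothermia replicates 1, 2 and 3 and 6.51, 6.40 and 6.52 in control replicates 1, 2 and 3. It increased 1.38-fold (log2 fold change 0.46, adjusted p = 0.0293 from limma), and when 1 array was left out it passed only without control replicate 3 (0.0391). Without control replicate 1 or 2 the adjusted p was 0.117 and 0.0857, and without hypothermia replicate 1, 2 or 3 it was 0.134, 0.128 and 0.101. The background covariate ended the call too (0.133). For HBEGF, a ligand of the EGF receptor, the log2 fold change was 0.54 (adjusted p = 0.0532), for the growth factor FGF18 0.42 (adjusted p = 0.125) and for VEGFC, the lymphatic growth factor, -0.46 (adjusted p = 0.0911). HBEGF missed the threshold here. It passed in 7 of 9 fits of all arrays with another setting and in none of the 6 without 1 array. The 9 leave out the plain test per feature, which after adjustment called no feature, HBEGF included. FGF18 and VEGFC passed in 1 of those 9, the fit with array weights (0.0269 and 0.0211). The median of the 20 ligands was 0.04.

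None of 17 receptors passed by limma or by the random variance model. At an unadjusted p under 0.05, 1 was lower and none higher, beside 6.08% and 5.41% of all features. The receptor with the smallest p was MET, the receptor of hepatocyte growth factor, at -0.34 on the log2 scale (limma, adjusted p = 0.275). FLT1, a VEGF receptor, had -0.10, IGF1R -0.09 and FGFR2 0.09.

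The adaptors carry the signal from the receptors to RAS, and 1 of 9 was lower and none higher. The fall was in SOS2, an exchange factor that binds the adaptor GRB2 and loads RAS with GTP. SOS2 had 6.12, 5.95 and 6.02 in hypothermia replicates 1, 2 and 3 and 6.75, 6.83 and 6.55 in control replicates 1, 2 and 3. The log2 fold change, -0.68, had a standard error of 0.0895 (limma, adjusted p = 0.018). When 1 array was left out it passed only without control replicate 3 (0.0155). Without control replicate 1 or 2 the adjusted p was 0.105 and 0.0604, and without hypothermia replicate 1, 2 or 3 it was 0.0525, 0.0905 and 0.0768. With the background covariate it was 0.0863. SOS1, its close relative, had -0.34 (adjusted p = 0.228), the phosphatase PTPN11 -0.25 (adjusted p = 0.27) and the docking protein GAB2 0.21 (adjusted p = 0.343). At an unadjusted p under 0.05, 4 adaptors were lower and 1 was higher, beside 6.08% and 5.41% of all features. In the random variance model 1 was lower and none higher.

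The RAS proteins with their regulators and the RAF-MEK-ERK cascade held no gene past the threshold, of 11 and 10 measured, by either limma or the random variance model. At an unadjusted p under 0.05, 6.08% of all features were lower and 5.41% higher. In each of these 2 lists 1 gene was lower by this rule and none higher. These were NF1, which encodes neurofibromin, the RAS inhibitor that SPRED1 recruits (log2 fold change -0.35, adjusted p = 0.292 from limma), and RPS6KA3, a kinase activated by ERK (-0.36, adjusted p = 0.279). The exchange factor RASGRP1 had -0.08, the RAF activator SHOC2 -0.11 and the GTPase activating protein RASA3 -0.07. The scaffold KSR1 had 0.11, the kinase RPS6KA2 0.10 and the kinase MAP2K2 0.11. The medians of the lists were -0.04 and 0.07.

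Of 14 measured genes whose proteins bind or modify Sprouty or SPRED proteins, 1 was lower and none higher. At an unadjusted p under 0.05 there were 3 lower and 1 higher, beside 6.08% and 5.41% of all features. In the random variance model there were 1 lower and 0 higher. CBLB, a ubiquitin ligase and close relative of CBL, had 5.71, 5.67 and 5.54 in hypothermia replicates 1, 2 and 3 and 6.37, 6.38 and 6.28 in control replicates 1, 2 and 3. All 3 arrays at 28 °C were below all at 37 °C. The log2 fold change, -0.70, had a standard error of 0.0721 (limma, adjusted p = 0.00725). Leaving out any 1 of the 6 arrays kept the call of CBLB (adjusted p 0.0163 to 0.0493), while the background covariate ended it (0.0512). DYRK1A, a kinase that acts on Sprouty proteins, had 0.28 (adjusted p = 0.162), and CAV1, which encodes caveolin-1, had -0.18 (adjusted p = 0.341). CBL itself was at -0.17 (adjusted p = 0.466). NF1 stands in this list too, and the median of the list was -0.06.

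Other inhibitors of the pathway included the dual-specificity phosphatases, which remove phosphate from ERK and related kinases. Of 14 measured, 3 were higher and none was lower. At an unadjusted p under 0.05 there were 6 higher and 0 lower, beside 5.41% and 6.08% of all features. In the random variance model there were 4 higher and 0 lower. DUSP1, DUSP2 and DUSP5, which act in the nucleus, rose by 0.85, 0.92 and 0.55 on the log2 scale (limma, adjusted p = 0.00262, 0.00797 and 0.0158). DUSP1 had 8.53, 8.54 and 8.54 in hypothermia replicates 1, 2 and 3 and 7.77, 7.62 and 7.68 in control replicates 1, 2 and 3. DUSP1 kept its call whichever array was left out, and DUSP2 lost it only without control replicate 1 (adjusted p = 0.0507). DUSP5 kept it only without control replicate 3 (0.035). Without control replicate 1 or 2 its adjusted p was 0.0887 and 0.0501, and without hypothermia replicate 1, 2 or 3 it was 0.0668, 0.0732 and 0.0507. With the background covariate it was 0.0708. DUSP6, the gene closest to SPRY2 above, was the fourth by p. The median of the 14 was 0.10.

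Target genes of ERK held the largest changes of the pathway, with 5 of 12 higher and none lower. At an unadjusted p under 0.05 there were 8 higher and 0 lower, beside 5.41% and 6.08% of all features. In the random variance model there were 5 higher and 0 lower. The immediate early genes EGR1, JUNB and FOS had log2 fold changes of 3.24, 2.09 and 0.86, and FOSL1, an AP-1 subunit that answers to sustained ERK activity, had 0.68 (limma, adjusted p = 0.00139, 0.00139, 0.00515 and 0.0164). The increase of SPRY2 was thus of the size of that of FOSL1 and below that of FOS. The fifth was IER3, a gene of the early growth factor response (0.64, adjusted p = 0.0291), which was outside the rule for named genes and was added after its values were seen. It had 6 features, and the 1 used, that with the highest mean, is listed for an alternative haplotype of chromosome 6. The other features of IER3 are not described here. IER3 lost its call whichever array was left out, with adjusted p of 0.0564, 0.0614 and 0.0512 without control replicate 1, 2 or 3 and 0.121, 0.0881 and 0.116 without hypothermia replicate 1, 2 or 3. The background covariate ended the calls of IER3 (0.158) and FOSL1 (0.106). EGR1, JUNB and FOS kept their calls whichever array was left out, and FOSL1 lost its call without hypothermia replicate 1 (adjusted p = 0.0832), 2 (0.0864) or 3 (0.0581). The other 7 genes of the list did not pass. ETV4, EPHA2 and MYC had log2 fold changes of 0.33, 0.22 and 0.18. ETV1, ETV5, PHLDA1 and CCND1 had 0.09, 0.04, 0.02 and -0.12. The median of the 12 genes was 0.28. This list was chosen with the increase of EGR1, JUNB and FOS already known, so its count is not independent evidence of its direction.

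Noncoding RNAs linked to the family gave no call. MIR21 and MIR126, genes of microRNAs that are known to target SPRY1 in heart fibroblasts and SPRED1 in endothelial cells, had log2 fold changes of 0.18 (limma, adjusted p = 0.526) and 0.19 (adjusted p = 0.319). Neither passed in the random variance model, and 1 of them was higher at an unadjusted p under 0.05, beside 5.41% of all features. The mean signals of MIR126 (± SD, n = 3 arrays each), 2.69 ± 0.0412 for hypothermia and 2.50 ± 0.0591 for control, were close to that of the median background feature. The arrays read the gene of a microRNA rather than its mature form. SPRY4-AS1 and SPRY4-IT1, transcripts of the SPRY4 locus, were not analysed here.

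No marker of a cell type passed the test. None of 13 cardiomyocyte and 9 fibroblast markers passed by limma or by the random variance model, or at an unadjusted p under 0.05, and their median log2 fold changes were 0.09 and 0.04. The sum of the log2 signals over the 13 cardiomyocyte markers was 53.6 to 53.7 at 28 °C and 52.2 to 53.8 at 37 °C. TTN, RYR2 and PLN, the lowest of the 13, had mean signals of 2.03 to 2.37 in both groups, below the median background feature. All other markers of this list had means above it in both groups. Among them ACTN2 had 3.05 at 28 °C and 2.96 at 37 °C, TNNI3 4.66 and 4.57, and ACTC1 5.55 and 5.51. Of the 13, only GATA4 had means above those of the brighter background features (6.10 to 6.49). The mean signals over all 6 arrays ran from 2.06 to 6.80 for the 13 cardiomyocyte markers and from 3.01 to 11.1 for the 9 fibroblast markers, and signals of different genes are not comparable. The cardiac transcription factor GATA4 had 6.88 at 28 °C and 6.73 at 37 °C, in groups that did not overlap (adjusted p = 0.486). None of the 5 endothelial, 4 leukocyte and 4 smooth muscle markers passed by any of these rules.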

How the data were processed

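RNA from 3 hypothermia and 3 control samples of AC16 cells was hybridised to 6 Affymetrix arrays. The authors deposited log2 signals made with RMA, which corrects background, normalizes between arrays and combines the probes of a feature. The RMA version is not given in the sources used here. Log2 signals were tested as deposited by lmFit and eBayes of limma (version 3.58.1, under R 4.3.3), with group as the only term, over 70523 features. In the platform annotation 23781 features carried 1 symbol, 1543 more than 1 symbol (these named no gene) and 45199 no symbol, and RefSeq (GRCh38.p14) renamed 306. The feature with the highest mean stood for a gene. Members, lists and tests were chosen with earlier results of these data known. Named genes were the 7 members, the 4 genes of each list with the smallest p and the 3 genes closest to each member past the threshold. CBL, IER3, the ERK target genes that did not pass and the ligands below the median background feature were added after their values were seen. So were GATA4 and the other markers given with values. Simulated data of 70523 features were used to test the fit for hypothermia against control. It recovered 25.4% of 67 features shifted by 0.5 and 92.5% of 67 shifted by 1 (log2). Fewer features were shifted than passed in the real data. The alternatives were other normalizations, filters, variance models, weights per array, a block for the replicate number, leaving out each array and the mean of all features of a gene.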

Additional observations from a re-analysis of the deposited data

How the results depend on the processing

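None of the members or named genes that were called changed direction under the alternatives run for them. Of the 7 members 2 were higher with all arrays, 1 after centring each array on its median (SPRY4, with SPRY2 at an adjusted p of 0.0528), 1 with the brighter background as a covariate (SPRY2, with SPRY4 at 0.103; added after seeing the data), 0 in a plain t-test per feature after Benjamini-Hochberg, which called no feature of the whole table, and 0 to 2 without 1 array. No alternative called a member lower. SPRY2 and SPRY4 both passed under the other alternatives, among them the random variance model, which the study's methods name for the arrays, the replicate block and the unadjusted plain t-test. Of the 108 pathway genes 9 were higher with all arrays, 14 with array weights, 5 with the background covariate, 0 in the plain t-test after adjustment, 24 in that test unadjusted, and 5 to 9 without 1 array. The lower genes were 2, and became 0 with the background covariate, 0 and 8 in the plain t-test after and before adjustment, and 1 to 6 without 1 array. Whether the replicate numbers pair the samples could not be decided from 3 arrays a group. With the replicate block the standard error went from 0.098 to 0.0751 for SPRY2 and from 0.084 to 0.0688 for SPRY4. Same-numbered arrays had correlations of -0.0817, 0.114 and 0.215 of their deviations from the group means, 3 of 6 arrays correlated best with their own number, and the replicate block took the calls over all features from 160 higher and 417 lower to 122 and 304, ended the call of VEGFA (adjusted p = 0.0655), added HBEGF (0.0425) and DUSP6 (0.0478) and changed no other call of a named gene. Without control replicate 3 there were 214 and 799. Centring moved the median of all features by -0.04. With 3 arrays a group, a change of 0.5 was mostly missed in simulated data. The share missed depends on how many features change, so it need not hold for these arrays.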
